A study of Mus musculus with 2 samples.

Results

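SSPC-1-like cells are described here as the periosteal cells with high Col8a1 and at least 2 of the markers Egfl6, Wnt16, Npnt, Fgf18 and Dio2. SSPC-1 is the name that the study gives to a skeletal stem and progenitor population of the outer, fibrous periosteum. The members were 940 of the 9596 cells that passed the filters, 576 of 4455 cells in one library and 364 of 5141 in the other. A cell was a member when it had 1000 to 5000 detected genes, under 25% mitochondrial UMIs, at least 15 Col8a1 UMIs per 10000 UMIs of the cell (CP10K), a UMI of at least 2 of the 5 markers and at most 2 UMIs of Kera, a gene of tendon and cornea. A UMI is a molecular tag that lets copies of the same mRNA molecule count once. Since measured values chose the members, the levels of these 7 genes are given as a description.

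Periosteal cells came from the femurs and tibias of 8-week-old mice. The first library (WT here) was from Prx1 Cre; Ai9/+ mice, in which Cre from a Prx1 promoter turns on the Ai9 fluorescent reporter in limb mesenchyme, and the second (P1CKO here) carried Piezo1 fl/fl in addition to the same Cre and reporter. Piezo1 encodes a mechanically gated ion channel. The cells of the last 2 of 3 digestions were sorted as Prx1 positive by flow cytometry and captured on the BD Rhapsody system, which counts the 3′ ends of transcripts. Both libraries thus share Cre, reporter, age, digestion and sort, and the labels give neither the number of animals, their sex or strain, nor whether cells of several animals were pooled. By counts the libraries were alike in sex-linked genes, with 4135 UMIs of the Y-linked Ddx3y in WT and 4794 in P1CKO. Xist had 2 and 5 UMIs. With 1 library per genotype no difference here has a replicate check, no test was run, and all intervals are exact 95% intervals that cover counting error only. A difference between WT and P1CKO is a difference between these 2 libraries, in which genotype and library cannot be told apart.

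The periosteum is the sheet of tissue around bone. Its inner cambium layer holds cells that go on to form bone, and its outer fibrous layer holds elongated cells in collagen, continuous with tendon and ligament insertions. Cells of both layers descend from Prx1-expressing limb mesenchyme, and skeletal stem and progenitor cells have been described in both. Several of the rule's genes encode proteins outside the cell. Col8a1 encodes a chain of collagen VIII, a short collagen that forms networks. Egfl6 and Npnt (nephronectin) encode related matrix proteins that bind integrin alpha 8 beta 1. Wnt16 is a Wnt ligand known for its effect on cortical bone, Fgf18 is a fibroblast growth factor of bone and cartilage, and Dio2 converts thyroxine into active thyroid hormone inside the cell.

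The WT library had 28030299 UMIs in 6118 barcodes and the P1CKO library 32337308 in 7469, and 50 barcodes occurred in both, 5 of them WT members and 1 a P1CKO member. Members had a median of 5861 UMIs and 2216 genes in WT and of 4916 UMIs and 1928 genes in P1CKO, against medians of 4908 and 4666 UMIs in the other stromal cells. Piezo1 had 147 UMIs in all of WT and 74 in all of P1CKO, and 14 and 2 in the members (3.64 and 0.971 CPM, the usual scaling of a gene's UMIs to the total UMIs of its group). The labels do not say which part of the gene the floxed allele removes, so a 3′ count is a limited check of it. Of the members, 2 in WT and 4 in P1CKO also met a blood cell gate, 4 and 3 an endothelial gate and 35 and 12 a mural gate. The summed level of 8 endothelial markers was 32.0 and 21.4 CPM in members and 42.8 and 30.7 in other stromal cells. The other stromal cells were chosen outside the gates, and the members were not. Tek made up 472 of 705 and 372 of 605 of the other stromal UMIs, and was at 176 and 126 CPM in Pi16 fibroblasts. Kdr was higher in members, at 15.3 and 11.7 CPM against 4.13 and 3.86. Emcn and Cldn5 had 0 UMIs in the P1CKO members and 3 and 5 in the P1CKO other stromal cells. Summed mural markers were at 337 and 147 CPM in members against 236 and 220.0. Higd1b was at 0 in the members and the other stromal cells of both libraries. Myh11 (log2 ratio 2.13 and 0.99), Notch3 (0.60 and 1.28) and Tagln (0.88 and 0.55) were higher in members. Cspg4 (-0.22 and -0.96) and Abcc9 (-1.14 and -4.40) were lower, and Rgs5, Kcnj8 and Acta2 were higher in WT only. Summed blood markers were at 82.4 and 276 CPM against 83.1 and 96.4. In P1CKO members 344 of these UMIs were S100a8, of which 241 lay in a single cell. Ptprc, Cd52, Tyrobp and Fcer1g were also higher in P1CKO members than in P1CKO other stromal cells (log2 ratio 2.07, 1.89, 1.46 and 0.82). C1qa and Lyz2 were near level there (0.03 and 0.04). Any blood marker UMI was found in 29.0% of WT members against 24.3% of other stromal cells, and in 28.0% against 32.2% in P1CKO. With cells thinned to equal depth these shares were 13.9% against 11.8% in WT and 18.7% against 17.0% in P1CKO.

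The rule narrowed the 2 libraries unequally at its last step. Col8a1 at 15 CP10K or more was found in 854 WT cells (19.2%) and 869 P1CKO cells (16.9%), and the limit on Kera left 842 (18.9%) and 846 (16.5%). Of these, 576 (68.4%) in WT and 364 (43.0%) in P1CKO had at least 2 of the 5 markers. The members were therefore 12.9% of WT cells (12.0 to 14.0) and 7.08% of P1CKO cells (6.39 to 7.82), as shares of sorted cells that passed the filters and not of the tissue. Wnt16 and Npnt carried most of the gap between the libraries. Among Col8a1-high, Kera-low cells, a Wnt16 UMI was found in 58.7% of WT and 20.1% of P1CKO cells, and an Npnt UMI in 42.0% and 18.6%. Egfl6 was found in 47.1% and 39.4%, Fgf18 in 43.1% and 46.6%, and Dio2 in 28.5% and 22.9%.

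The 7 genes had these levels in the members, computed from summed UMIs. Col8a1 was at 6033 CPM in WT (5956 to 6111) and 3880 in P1CKO (3795 to 3966), against 559.6 and 652 CPM in the other stromal cells. Egfl6 was at 532 and 398 CPM against 59.3 and 67.7. Fgf18 was at 336 and 438 CPM against 55.7 and 90.9, and Dio2 at 186 and 251 CPM against 33.6 and 64.2. These last 3 markers were as abundant in P1CKO members as in WT members within a factor of 1.5, and of Egfl6-positive Col8a1-high cells 60.5% in WT and 56.5% in P1CKO also had Fgf18. Wnt16 was at 388 CPM in WT members and 155 in P1CKO members, against 94.2 and 23.9, and Npnt at 427 and 161 against 64.2 and 25.7. Pooled over the other stromal cells both were lower in P1CKO, where the Tnn-high cells defined further on, which carry both genes, were 4.53% of cells against 12.3% in WT. Within Tnn-high cells Npnt was at 139 and 152 CPM, with no UMI in 61.2% of WT and 64.4% of P1CKO cells. Wnt16 had no UMI in 37.9% of WT and 70.4% of P1CKO Tnn-high cells. The part of the share of Tnn-high cells in the pooled levels was not tested. Of Npnt-positive cells, 270 of 354 (76.3%) in WT also had a Wnt16 UMI, and 49 of 157 (31.2%) in P1CKO. Kera, which the rule limits, was at 3.90 and 3.40 CPM.

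RNA free in the suspension can give a cell UMIs of genes it does not express. The marker shares are set beside those of blood-gated cells outside the members, as a description. The rule chose members by UMIs of these same markers, so part of the gap is fixed in advance. How much free RNA the members hold was not tested. With cells thinned to 2500 UMIs, an Egfl6 UMI was found in 50.5% of WT and 49.7% of P1CKO members and in 1.59% and 1.12% of blood-gated cells, whose median depth was 3928 and 4163 UMIs. Wnt16 was found in 54.0% and 24.4% of thinned members and in 1.59% and 0.223% of blood-gated cells. Npnt stood apart in that endothelial-gated cells (median 3120 and 2960 UMIs) had it in 12.0% and 23.4%, against 42.1% and 24.1% of members.

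The genes lie on different chromosomes of GRCm38 by the GENCODE vM21 annotation: Col8a1 at chr16:57624258-57754737 (minus strand), Egfl6 at chrX:166523007-166585720 (minus), Wnt16 at chr6:22288227-22298522 (plus), Npnt at chr3:132881745-132950291 (minus), Fgf18 at chr11:33117430-33147400 (minus) and Dio2 at chr12:90724552-90738438 (minus). The start-site windows of 3 markers are shown, each 250 bases before to 50 after the RefSeq start on GRCm38.p6 and 5′ to 3′ on the gene's strand. Wnt16 differed more between the libraries than Egfl6, Egfl6 gives the cells part of their name, and Dio2 is the only one of the 5 with a match to a searched motif. The Wnt16 window is chr6:22287977-22288276 (plus), the Egfl6 window chrX:166585667-166585966 (minus) and the Dio2 window chr12:90738989-90739288 (minus). The Dio2 window lies wholly before the 5′ end of the GENCODE span given above, so RefSeq and GENCODE place the start of Dio2 differently.
Wnt16: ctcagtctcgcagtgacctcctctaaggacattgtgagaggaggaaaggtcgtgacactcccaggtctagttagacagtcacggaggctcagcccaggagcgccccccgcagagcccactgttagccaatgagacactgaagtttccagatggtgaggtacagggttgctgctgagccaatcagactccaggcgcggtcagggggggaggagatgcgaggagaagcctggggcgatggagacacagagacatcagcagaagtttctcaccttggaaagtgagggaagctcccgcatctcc
Egfl6: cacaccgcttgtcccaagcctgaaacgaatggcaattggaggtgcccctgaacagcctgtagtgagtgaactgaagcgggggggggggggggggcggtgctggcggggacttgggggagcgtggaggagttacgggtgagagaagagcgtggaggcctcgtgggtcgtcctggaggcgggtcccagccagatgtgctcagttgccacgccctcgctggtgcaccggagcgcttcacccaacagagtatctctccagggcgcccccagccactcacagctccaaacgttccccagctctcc
Dio2: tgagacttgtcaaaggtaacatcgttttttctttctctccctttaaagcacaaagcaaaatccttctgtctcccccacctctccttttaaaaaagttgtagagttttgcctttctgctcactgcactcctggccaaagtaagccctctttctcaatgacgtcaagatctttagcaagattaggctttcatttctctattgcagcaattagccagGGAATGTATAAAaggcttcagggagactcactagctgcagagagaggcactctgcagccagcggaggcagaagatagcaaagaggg
Capitals mark the matches. Both strands were searched for 3 motifs. The RUNX motif TGTGGT was found in 16.8% of 32851 such windows and in none of the 5 markers. The TEAD motif GGAATG, through which YAP acts, was found in 14.7% of the windows. The TATA box, searched as TATAAA, was found in 13.6%. In Dio2 the last pair stand next to each other and together give the capitals. A match is a description of the letters and not of binding.

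**Figure D1:**
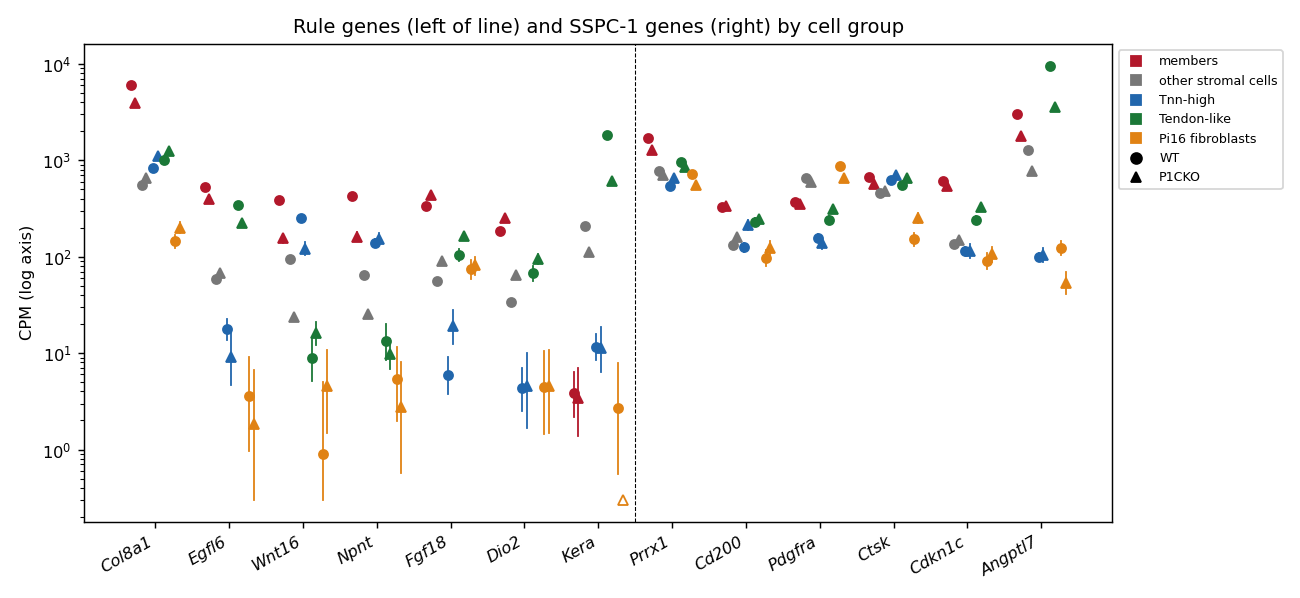
Summed-UMI levels (CPM, log axis) of the 7 genes of the rule and of the 6 genes that the study uses for SSPC-1, in the members, the other stromal cells and 3 comparison groups, with circles for WT, triangles for P1CKO and bars for 95% Poisson intervals. Angptl7 is lower in members (3009 and 1786 CPM) than in Tendon-like cells (9416 and 3562), while Cdkn1c is at 608 and 543 CPM in members against 134 and 150.4 in the other stromal cells. An open symbol at the bottom is a count of 0.

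The label was checked against Prrx1, Cd200, Pdgfra, Ctsk, Cdkn1c and Angptl7, which the study names for SSPC-1. The study describes SSPC-1 by these genes in the WT library, so they are not independent evidence. The other stromal cells (2831 and 3506) are the cells outside the members and outside the blood, endothelial and mural gates. A gene is counted as higher or lower when it differs at least 2-fold the same way in both libraries with at least 10 UMIs on the higher side. By this rule 485 of 12870 genes (3.77%) were higher and 789 (6.13%) lower in members than in other stromal cells, and the median log2 ratio over all genes was 0.00 in WT and -0.01 in P1CKO. Of the 6 label genes, 3 were higher and none lower, with a median log2 ratio of 1.19 in WT and 0.97 in P1CKO. The genes set members apart less from the Tendon-like cells described further on. Over these the log2 ratio was 1.34 and 0.73 for Cdkn1c, 0.81 and 0.60 for Prrx1 and 0.51 and 0.48 for Cd200. It was 0.62 and 0.15 for Pdgfra and 0.27 and -0.19 for Ctsk. Angptl7 was lower in members than in Tendon-like cells in both libraries.

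Cdkn1c, a cyclin-dependent kinase inhibitor tied to stem cell quiescence, was at 608 CPM in WT members and 543 in P1CKO members, against 134 and 150.4 in other stromal cells, a log2 ratio of 2.18 (2.10 to 2.27) and 1.85 (1.75 to 1.95). Cd200, a surface protein used to sort skeletal stem cells, was at 328 and 339 CPM against 132 and 159 (1.31 and 1.09). Prrx1, the limb mesenchyme transcription factor whose promoter drives the Cre, was at 1697 and 1272 CPM against 771 and 703 (1.14 and 0.86). Ctsk, a cathepsin that marks periosteal stem cells and osteoclasts, differed little, at 671 and 568 CPM against 462 and 478 (0.54 and 0.25). Pdgfra, a receptor of mesenchymal cells, was at 372 and 348 CPM against 647 and 597 (-0.80 and -0.78), in 77.1% and 68.1% of members. The order of Pdgfra depends on the cells compared, since it was at 157 and 139 CPM in the Tnn-high cells described further on (1.25 and 1.32 for members over these) and at 872 and 656 in Pi16 fibroblasts.

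Angptl7, a secreted angiopoietin-like protein, was at 3009 CPM in WT members and 1786 in P1CKO members, against 1271 and 782 in the other stromal cells. The log2 ratio was 1.24 (1.21 to 1.28) in WT and 1.19 (1.14 to 1.24) in P1CKO. The gene lies at chr4:148495183-148500460 (minus strand) inside Mtor, and as the strand of counting is not given in the sources used here, reads of the 2 genes cannot be told apart, though all of Mtor had 59 UMIs in WT members. Among single members Angptl7 ranged widely. The median was 15.7 CP10K in WT (25th to 75th percentile 1.13 to 40.8, highest 355) and 0.930 in P1CKO (0 to 13.6, highest 195), and 22.4% and 49.2% of members had no UMI. In thinned cells a UMI was found in 70.9% of WT and 44.9% of P1CKO members, against 15.6% and 6.70% of blood-gated cells and 12.0% and 7.79% of endothelial-gated cells. Chad, which encodes the cartilage and tendon matrix protein chondroadherin, was spread more evenly, with a median of 45.6 CP10K in WT and 46.0 in P1CKO and no UMI in 10.2% and 9.34% of members. Cdkn1c had a median of 4.57 and 4.32 CP10K and no UMI in 18.8% and 22.5%.

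**Figure D2:**
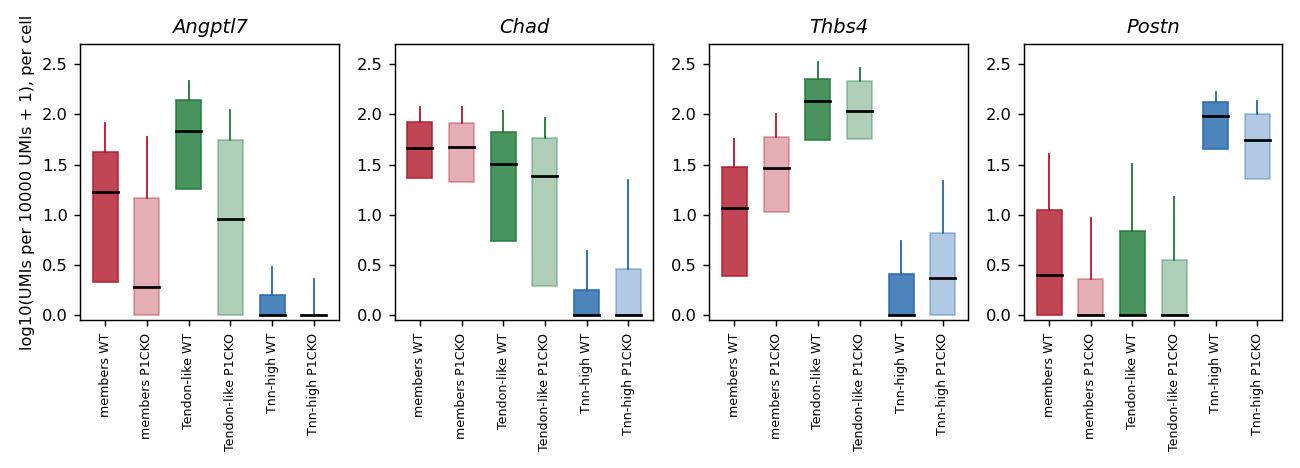
Levels per cell, as log10 of CP10K plus 1, of Angptl7, Chad, Thbs4 and Postn in members, Tendon-like and Tnn-high cells of each library (WT dark, P1CKO light). Boxes run from the 25th to the 75th percentile, black lines are medians and thin lines reach the 90th percentile. The Angptl7 median is 15.7 CP10K in WT members and 0.930 in P1CKO members, between Tendon-like cells (67.5 and 8.18) and Tnn-high cells (0 in both).

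The genes that set the members apart from the other stromal cells include matrix and signalling genes that the rule did not read, although they come from the same cells and are given as a description. Igfbp3, an insulin-like growth factor binding protein, was at 354 and 393 CPM in members against 45.8 and 49.3 (log2 ratio 2.95 and 3.00). Kcnj2, an inward rectifier potassium channel, was at 247 and 119 CPM against 18.5 and 10.3 (3.74 and 3.53). Chad was at 5457 and 5649 CPM against 1019 and 1114 (2.42 and 2.34), but at 4547 and 3464 CPM in the Tendon-like cells described further on (0.26 and 0.71 for members over these). Col8a2, the partner chain of Col8a1 in collagen VIII, was at 1641 and 1564 CPM against 290 and 369 (2.50 and 2.08). Mfap4, a microfibril-associated glycoprotein, was at 2457 and 2292 CPM against 438 and 582, and Matn4, a matrilin, at 78.5 and 85.5 against 10.4 and 19.1. Vipr2, a receptor for vasoactive intestinal peptide, was at 125 and 93.7 CPM against 24.7 and 21.5, and Shisa2, which holds back Wnt and FGF receptors, at 122 and 103 against 19.2 and 18.1. The rest of the 15 genes chosen by size were Gm973, Hs3st3b1, Ecrg4, Shisal1, Gnai1, Tenm3 and Ddit4l, with the smaller of their 2 log2 ratios between 1.97 and 3.57.

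The genes lowest in the members included complement and chemokine genes. The complement gene C3 was at 19.8 and 16.0 CPM against 447 and 402 (log2 ratio -4.49 and -4.63), and C4b at 6.76 and 24.3 against 232 and 521 (-5.08 and -4.41). Ccl11, the eosinophil chemokine eotaxin, was at 8.32 and 4.86 CPM against 137 and 79.7 (-4.02 and -3.97). Procr, the protein C receptor, was at 14.8 and 10.7 CPM against 289.7 and 169.8 (-4.28 and -3.96). Efhd1, Scg3, Olfml2a, Pla1a, Ifi205 and Sema3e completed the 10 genes. In the fibroblast list, 12 of 16 measured genes were lower in members and 1 was higher, and the median log2 ratio was -3.37 in WT and -2.97 in P1CKO. Cd34, a surface protein of adventitial fibroblasts, was at 233 CPM in both libraries against 1291 and 1424, and Dpt (dermatopontin) at 64.5 and 99.6 against 818 and 1132. The exception was Mgp, an inhibitor of calcification, at 6220 and 20670 CPM against 1923 and 5541 (1.69 and 1.90).

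**Figure D3:**
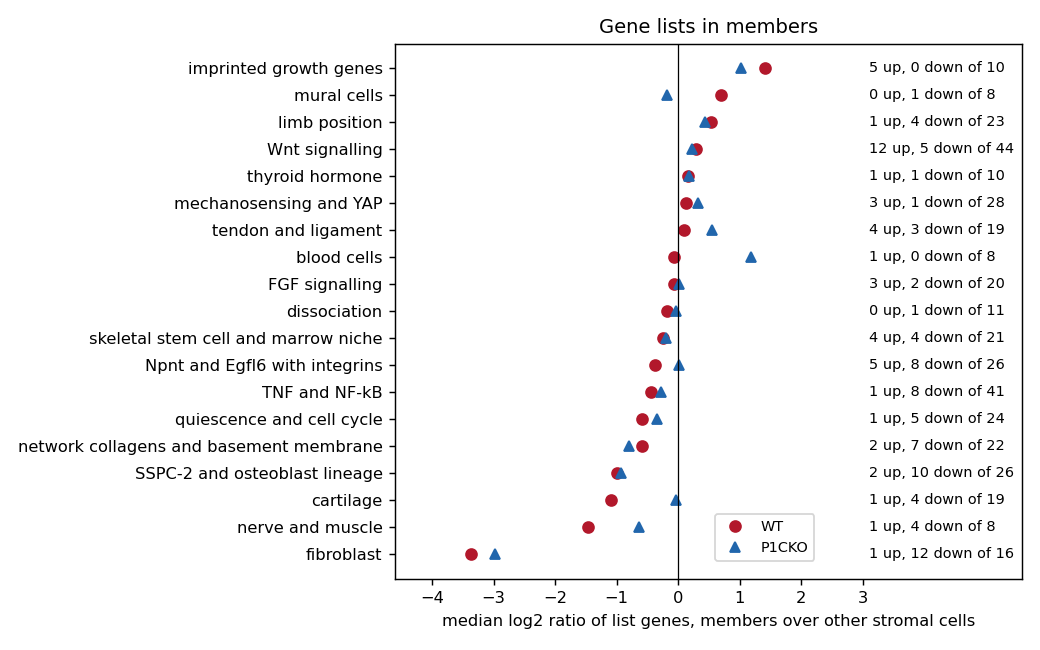
Median log2 ratio of members over other stromal cells for 19 gene lists, WT as circles and P1CKO as triangles, with the number of genes at least 2-fold higher and lower in both libraries out of those measured. The fibroblast list stands lowest (-3.37 and -2.97), and the imprinted growth genes stand at 1.42 and 1.03.

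Of 26 measured genes of the osteoblast lineage, 2 were higher in members and 10 lower, with a median log2 ratio of -0.99 in WT and -0.92 in P1CKO. The higher ones were the homeobox factors Dlx5, at 437 and 164 CPM against 153 and 63.9 (1.52 and 1.36), and Dlx6, at 165 and 48.1 against 55.9 and 17.7. Dlx6 overlaps the antisense transcript Dlx6os1, and its reads may in part belong to that gene. Runx2, the master factor of osteoblasts, was at 207 and 129 CPM against 130 and 76.8 (0.67 and 0.75), under the 2-fold limit. Sp7 (osterix), which acts after Runx2, was lower, at 33.3 and 12.1 CPM against 80.7 and 27.0 (-1.27 and -1.12). The mineralization enzyme gene Alpl was at 122 and 34.0 CPM against 258 and 105 (-1.08 and -1.62), and Spp1 (osteopontin) at 92.8 and 132 against 704 and 925 (-2.92 and -2.81).

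Tendon genes were mixed, with 4 of 19 measured genes higher, 3 lower and a median of 0.10 and 0.56. Mkx (mohawk), a tendon transcription factor, was at 89.4 and 82.6 CPM against 31.3 and 26.1 (1.52 and 1.66), and Fmod (fibromodulin), which controls collagen fibril width, at 4850 and 5668 against 2240 and 2119 (1.11 and 1.42). Chad and Cilp2, a matrix gene of cartilage and tendon, were the other higher genes. Tnmd, the membrane protein tenomodulin, was at 458 and 563 CPM against 347 and 383 (0.40 and 0.56), and Thbs4 (thrombospondin 4) at 1906 and 4431 against 1980 and 3262 (-0.05 and 0.44). The tendon sheath gene Tppp3 was lower, at 50.4 and 60.2 CPM against 462 and 611. Of 19 cartilage genes 1 was higher, Gdf5, and 4 were lower.

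Wnt genes were higher mainly on the receiving side. Of 44 measured Wnt genes 12 were higher, the rule gene Wnt16 among them, and 5 lower, with medians of 0.29 and 0.22. Among 16 receptors and co-receptors, 6 were higher (Fzd1, Fzd2, Fzd7, Lrp5, Lrp6 and Lgr5) and none was lower, and of 7 targets 3 were higher (Axin2, Nkd1 and Nkd2) and none lower. Lgr5, the R-spondin receptor known from intestinal stem cells, was at 25.5 and 66.5 CPM against 5.22 and 14.3 (2.29 and 2.22). Axin2, a feedback target of beta-catenin, was at 37.2 and 35.9 CPM against 11.0 and 11.2 (1.76 and 1.69). Fzd7 was at 165 and 154 CPM against 53.5 and 65.4, and Fzd1 at 345 and 405 against 153 and 163. Among 9 ligands, the rule gene Wnt16 and Wnt5a (215 and 136 CPM against 103 and 63.4) were higher, and Wnt2, Wnt10b and Wnt11 were lower. The R-spondin Rspo3, which raises Wnt receptor levels, was at 63.9 and 15.5 CPM against 21.1 and 6.75. Of 10 secreted inhibitors none was higher and Frzb was lower. The 3 higher targets were also read in Tendon-like cells. Axin2 was at 16.7 and 16.4 CPM there and Nkd1 at 15.6 and 8.97, against 34.0 and 19.4 for Nkd1 in members. Nkd2 was at 63.0 and 70.8 CPM there, against 62.4 and 118 in members. Mural-gated cells had Nkd1 at 139 and 123 CPM.

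The rule genes Fgf18, Npnt, Egfl6 and Dio2 belong to pathways whose other members varied. Counts in this paragraph include the rule genes, which were high by the choice of members. Of 20 FGF genes 3 were higher and 2 lower. Beside the rule gene Fgf18 the higher ones were the receptor Fgfr2, at 293 and 243 CPM against 134 and 87.3 (1.14 and 1.48), and the decoy-like receptor Fgfrl1, at 78.8 and 66.5 against 25.7 and 22.4 (1.62 and 1.58). Fgfr3, a receptor through which Fgf18 signals in cartilage, was lower, at 15.3 and 3.89 CPM against 36.0 and 10.5 (-1.22 and -1.35), and Fgfr1 was at 487 and 543 CPM against 374 and 399.6 (0.38 and 0.44). The annotated span of Fgfr2 overlaps other genes, whose reads may be mixed in. Of 26 genes of the integrin list 5 were higher, the rule genes Npnt and Egfl6 among them, and 8 lower. Itga8, which encodes the alpha subunit that binds nephronectin and Egfl6, was itself higher in members, at 47.0 and 26.7 CPM against 13.2 and 10.0 (1.84 and 1.43). Itga1, a collagen-binding subunit, was at 142 and 136 CPM against 59.1 and 57.4. Of 22 network collagen and basement membrane genes, only the rule gene Col8a1 and Col8a2 were higher and 7 were lower, among them Col4a1 at 208 and 331 CPM against 624 and 756. Of 10 thyroid hormone genes none but the rule gene Dio2 was higher, and Crym was lower. The receptor Thra was at 139 and 122 CPM against 154 and 113, and its annotated span overlaps the abundant Nr1d1.

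Of 10 measured imprinted growth genes 5 were higher and none was lower, with medians of 1.42 and 1.03. The list shares Cdkn1c with the label genes. H19, a long noncoding RNA expressed from the maternal allele, was at 596 and 1270 CPM against 157 and 226 (1.93 and 2.49), in 31.1% and 46.7% of members. Peg3, a paternally expressed zinc finger gene, was at 621 and 384 CPM against 215 and 147 (1.53 and 1.38). Mest and Peg10 were also higher, and Meg3 was at 523 and 384 CPM against 211 and 235 (1.31 and 0.71). Cycling genes were near 0. Mki67 had 3 UMIs in WT members and 1 in P1CKO members, and 6 cycling genes together had 16 and 10 UMIs (4.16 and 4.86 CPM). Their summed level was also low in Tendon-like cells (3.34 and 2.47 CPM) and Pi16 fibroblasts (4.45 and 2.77). It was higher in Tnn-high cells (45.3 and 40.4 CPM) and in the other stromal cells of both libraries. The share of cells with such a UMI was not lower in members, at 2.60% and 2.20% against 2.15% and 1.83% of other stromal cells. The damage-responsive inhibitor Cdkn1a was lower in members, at 87.6 and 54.9 CPM against 199 and 193.

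Of 28 mechanosensing and YAP genes 3 were higher and 1 lower. Piezo2, the related channel, was at 106 and 177 CPM against 38.0 and 69.5 (1.48 and 1.35). The YAP targets Ccn2 and Ccn1 were at 4748 and 6232 CPM against 1002 and 1855 and at 1490 and 1506 against 696 and 739. Ankrd1, a further YAP target, was the lower one. Of 21 stem cell and niche genes 4 were higher (Grem1, Cd200, Axin2 and Il34) and 4 lower. Grem1, a BMP antagonist that marks skeletal stem cells in marrow, was at 119 and 40.8 CPM in members, with log2 ratios of 2.25 and 1.45, and Cxcl12, the chemokine that holds blood stem cells, was lower, at 93.0 and 42.3 against 277 and 395. Of 41 TNF and NF-kB genes 1 was higher and 8 lower, among them the interleukin receptor Il1r1 at 18.7 and 23.3 CPM against 103 and 102. Of 23 limb position genes 1 was higher (Tbx3) and 4 lower. In the dissociation list, immediate early genes that enzymatic digestion can induce, none of 11 was higher and Atf3 was lower.

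Tnn-high cells (Tnn at 5 CP10K or more and Ibsp under 20, 546 and 233 cells) are cells rich in tenascin N, a matrix protein of the bone-facing periosteum. Members were higher in 599 of 9969 genes (6.01%) and lower in 341 (3.42%), with a median log2 ratio of 0.17 and 0.08 over all genes. Angptl7 was at 99.3 and 105 CPM in the Tnn-high cells, log2 ratios of 4.92 and 4.08. Ccn3, a matricellular protein, was at 1272 and 2890 CPM in members against 33.1 and 95.9 (5.26 and 4.91), and the matrix gene Adamtsl3 at 74.6 and 74.3 against 4.89 and 5.33. The collagenase gene Mmp13 went the other way, at 38.5 and 61.7 CPM against 558 and 1537 (-3.85 and -4.63), and so did Prss35, at 80.6 and 8.26 against 775 and 328. Wnt16 was at 254 and 121 CPM in the Tnn-high cells.

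Tendon-like cells (Tnmd and Thbs4 each at 5 CP10K or more, 308 and 622 cells) differed from the members in the fewest genes of the 3 comparison groups, with 242 of 10400 higher (2.33%) and 190 lower (1.83%) in members and a median log2 ratio of 0.12 and 0.11. The groups differ in size, and the gates fix part of what differs. Angptl7 was lower in members than in Tendon-like cells, at 3009 against 9416 CPM in WT and 1786 against 3562 in P1CKO. Ostn, the secreted peptide osteocrin, was at 169 and 120 CPM in members against 1.11 and 2.17 (6.93 and 5.70), and Kcnj2 at 247 and 119 against 11.1 and 7.11. Efna5, an ephrin ligand, was at 105 and 68.5 CPM against 7.80 and 8.66. Chodl (chondrolectin) was lower, at 15.1 and 12.1 CPM against 669.9 and 413 (-5.46 and -5.06), and Col18a1, a basement membrane collagen, at 7.02 and 8.74 against 91.4 and 60.3. Wnt16 was at 8.92 and 16.1 CPM in Tendon-like cells and Npnt at 13.4 and 9.90.

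Pi16 fibroblasts (Pi16 at 5 CP10K or more with a Dpp4 UMI, 195 and 179 cells) differed from the members in the most genes of the 3 groups, with 921 of 9933 genes higher (9.27%) and 735 lower (7.40%) in members. Chad was at 38.3 and 51.7 CPM in these fibroblasts (7.14 and 6.76) and Fmod at 49.0 and 58.1 (6.62 and 6.60). C3 was at 1589 and 1094 CPM there and Efhd1 at 607 and 505, log2 ratios of -6.32 and -6.07 and of -6.21 and -6.63.

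The members were not uniform, and they can be split by which markers they carried. This split was chosen after the values were seen. Members with a UMI of Egfl6, Fgf18 or Dio2 and of neither Wnt16 nor Npnt (E-only) were 95 in WT (16.5%) and 155 in P1CKO (42.6%). Members with both kinds of marker (E and W) were 398 (69.1%) and 192 (52.7%), and members with a UMI of Wnt16 or Npnt and of none of the other 3 (W-only) were 83 (14.4%) and 17 (4.67%). The median depth was 5087, 6098 and 5605 UMIs in WT and 4601, 5237 and 5024 in P1CKO.

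The W-only cells go against the SSPC-1 label. Angptl7 was at 5040 CPM in E-only, 3158 in E and W and 284 in W-only cells of WT, and at 2458, 1447 and 65.7 in P1CKO. Tnn was at 149.6, 527 and 5107 CPM in WT and 35.8, 268 and 2759 in P1CKO, and Postn (periostin), which the study uses for the inner SSPC-2 population, at 192, 954 and 7589 and at 161, 262 and 3087. Both genes had an order opposite to that of Angptl7 in each library. Alpl was at 17.8, 65.5 and 499 CPM in WT and 14.3, 12.6 and 413 in P1CKO, and Sp7 at 1.78, 23.5 and 111 and at 0, 14.3 and 84.4. Chad was similar in E-only and E and W cells (6572 and 6150 CPM in WT, 5191 and 6450 in P1CKO) and lower in W-only cells (1032 and 854), and Cdkn1c was at 629 and 698 against 159 CPM in WT and at 571 and 549 against 263 in P1CKO. Tnmd was at 997, 436 and 31.7 CPM in WT and 862, 389 and 46.9 in P1CKO. The 3 kinds were not in one order for every gene, since Chad in P1CKO and Cdkn1c in WT were highest and Alpl in P1CKO was lowest in the E and W cells. Ostn was at 3.56, 155 and 402 CPM in WT and 29.9, 169 and 309.6 in P1CKO, and Grem1 at 8.90, 113 and 256 and at 5.97, 46.6 and 253. Col8a2 differed little across the 3 kinds, at 1288, 1798 and 1238 CPM in WT and 1324, 1717 and 1858 in P1CKO. Over 6714 genes, 196 were at least 2-fold higher and 275 lower in W-only than E-only cells in both libraries.

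**Figure D4:**
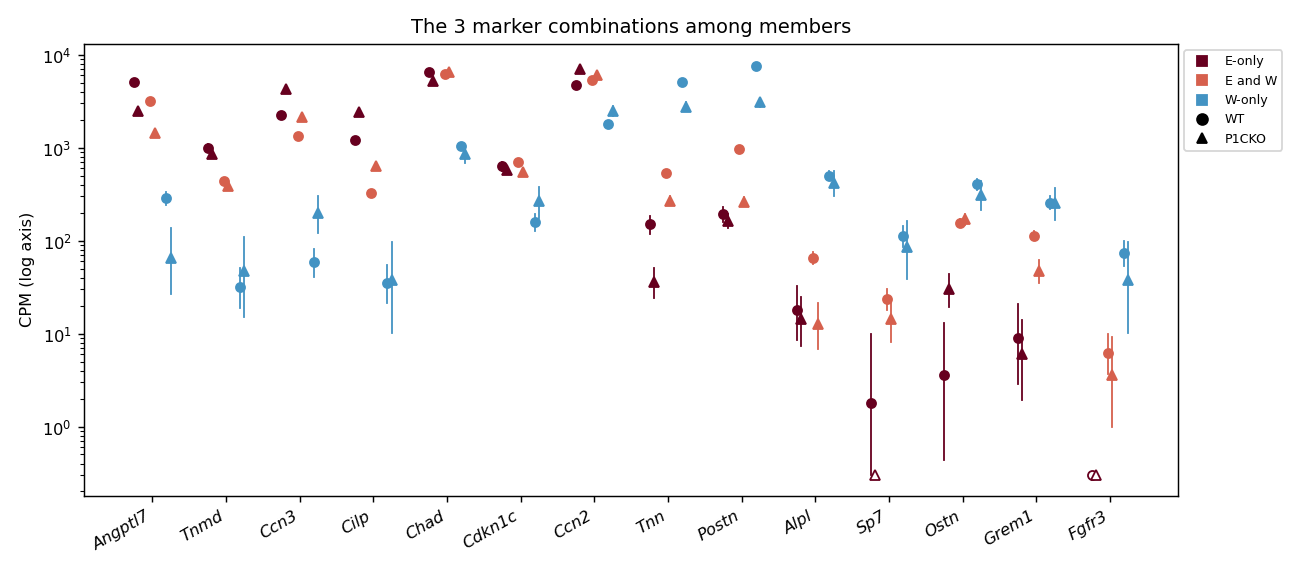
Levels (CPM, log axis) of 14 genes in members that carry only Egfl6, Fgf18 or Dio2 (E-only), both kinds of marker (E and W) or only Wnt16 or Npnt (W-only), with WT and P1CKO side by side and open symbols at the bottom for a count of 0. Angptl7, Tnmd, Ccn3 and Cilp are highest in E-only cells, and Tnn, Postn, Alpl, Sp7, Ostn and Grem1 are highest in W-only cells, in both libraries.

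Cells near the limits of the rule had these values, as a description. In WT, 68 cells with Col8a1 between 10 and 15 CP10K that met the rest of the rule had Angptl7 at 1692, Chad at 3719 and Tnn at 4070 CPM, 62 members between 15 and 20 CP10K had 2828, 5440 and 2972, and 214 members at 60 CP10K or more had 3221, 6088 and 272. In P1CKO the same levels were 2076, 4367 and 758 CPM in 80 cells, 1260, 5478 and 456 in 68 members and 1465, 4549 and 158 in 54 members. Tnn was thus lower at higher Col8a1 in each library. Cells with 1 marker, which fall outside, had Angptl7 at 2347 (166 cells) and 1543 CPM (326 cells), and members with 2 markers at 2137 and 2022. Cells that failed only by having more than 2 Kera UMIs numbered 8 and 10, with Thbs4 at 7778 and 12682 CPM.

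Between the libraries, the P1CKO members were at least 2-fold higher than the WT members in 316 of 11188 genes (2.82%) and lower in 718 (6.42%), with at least 10 UMIs on the higher side and a median log2 ratio of -0.05. Of the 316 genes, 69 (21.8%) were also past 2-fold in the same direction in the other stromal cells, and of the 718 genes 174 (24.2%). Since the kinds of member had different shares in the 2 libraries, ratios within E-only and within E and W cells are given beside the pooled ones.

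Angptl7 was lower in P1CKO members, 1786 against 3009 CPM, a log2 ratio of -0.75 (-0.81 to -0.70), with -1.04 within E-only and -1.13 within E and W cells and -0.70 in the other stromal cells. Chad, Cdkn1c and Prrx1 were nearer to level, with log2 ratios of 0.05, -0.16 and -0.42. Scx (scleraxis), the early tendon transcription factor, was at 57.2 CPM in WT members and 297 in P1CKO members (2.37, 2.15 to 2.60), and was higher also within E-only (2.90) and E and W cells (2.47) and in the other stromal cells (2.80). Scx lies inside Bop1, which had 54 UMIs in WT members. Thbs4 was at 1906 and 4431 CPM (1.22 in members, 0.72 in other stromal cells), and Mgp at 6220 and 20670 (1.73 and 1.53). Cyp1b1, a cytochrome P450 that metabolizes steroids and retinoids, was at 28.3 and 156 CPM (2.46 in members, 0.66 in other stromal cells). Of 19 tendon genes 3 were at least 2-fold higher (Scx, Cilp and Thbs4) and none lower.

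The osteoblast list was lower in P1CKO members, with 9 of 21 genes at least 2-fold lower, none higher and a median of -0.76, which was also the median in the other stromal cells. Within the kinds of member the ratios of single genes differed. Postn was at 1821 and 367 CPM (-2.31), with -0.26 within E-only and -1.86 within E and W cells, and Alpl at 122 and 34.0 (-1.84), with -0.32 within E-only and -2.34 within E and W cells. Lrrc15 was lower in all members (-2.37) and higher within E-only cells (1.47). Dlx5 was lower in every one of these groups, at 437 and 164 CPM (-1.41), with -2.17 within E-only, -1.07 within E and W and -1.26 in other stromal cells. Among the 10 lowest genes by size, Lrrn1 was at 96.9 and 14.6 CPM (-2.71), Crabp1, a retinoic acid binding protein, at 54.3 and 6.31 (-3.05), Ptch1, a receptor and target of hedgehog signalling, at 73.8 and 18.0 (-2.02), and Gdf10 at 125 and 26.2 (-2.24). The ratio of Gdf10 in the other stromal cells was -0.17, and that of Dlk1, which was at 55.6 and 9.71 CPM in members, was 0.24. Prss35, Cyp26a1 and Thsd7a were lower in members and in other stromal cells.

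Of 41 Wnt genes 2 were higher in P1CKO members (Lgr4 and Lgr5) and 8 lower, with a median of -0.32 against -0.30 in the other stromal cells. Rspo3 was at 63.9 and 15.5 CPM (-2.02) and Lgr5 at 25.5 and 66.5 (1.38), and both had the same direction within E-only and E and W cells. Of 41 TNF and NF-kB genes 10 were higher and 3 lower, with a median of 0.24 against 0.06 in the other stromal cells. Nfkbia, the feedback inhibitor of NF-kB, was at 239 and 668 CPM (1.49 in members, 0.89 in other stromal cells). Of the chemokine genes, Ccl2 had a log2 ratio of 1.78 in members and 0.04 in other stromal cells, and Cxcl1 one of 1.58 and 0.21, and both were higher within E-only and E and W cells. Of 11 dissociation genes none passed 2-fold, 10 were higher, and the median was 0.20 in members and 0.19 in other stromal cells. Of 8 blood cell markers 5 were higher in P1CKO members, with a median of 1.11 against 0.04 in the other stromal cells. The part of either list in the chemokine values was not tested. Of 20 stem cell and niche genes 1 was higher (Ly6a) and 6 lower. Grem1 was at 119 and 40.8 CPM (-1.53), with -0.58 within E-only and -1.26 within E and W cells, and Gli1, a target of hedgehog signalling, had a log2 ratio of -1.49 in members and -0.10 in other stromal cells. The 6 include the mural genes Acta2 and Mcam, and of 8 mural markers 5 were lower in P1CKO members, with a median of -1.53. Of 17 cell cycle genes Ccnd1 and Ccnd2 were lower, Ccnd1 at 121 and 51.5 CPM (-1.23 in members, -0.28 in other stromal cells). H19 was at 596 and 1270 CPM (1.09 in members, 0.53 in other stromal cells). No gene passed 2-fold among 6 label genes in the pooled members, while Angptl7 was past 2-fold lower within each kind (-2.02 within W-only cells). The W-only value rests on 7 UMIs in P1CKO (interval -3.45 to -1.04). The interval within E-only cells (-1.12 to -0.95) includes less than 2-fold. Among 19 network collagen genes none passed 2-fold, and Col8a1 itself was at 6033 and 3880 CPM.

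The largest ratios in P1CKO members were neutrophil genes. Ngp had 0 UMIs in WT members and 133 in P1CKO members. S100a9 had 14 and 573 UMIs and S100a8 10 and 344, log2 ratios of 6.21 and 5.94 in members and 3.41 and 2.76 in the other stromal cells. The single highest P1CKO cell of each gene held 73.7% of the Ngp UMIs, 59.7% of the S100a9 UMIs, 70.1% of the S100a8 UMIs and 81.1% of the Retnlg UMIs. Without the members in the blood, endothelial and mural gates the log2 ratio was 3.76 for S100a9 and 3.23 for Retnlg. Chil1 had 67 and 397 UMIs (3.46), with 61.2% of the WT and 51.1% of the P1CKO UMIs in 3 cells. Srgn, Kcnj15 and Fbln7 were also among the 10 highest genes.

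**Figure D5:**
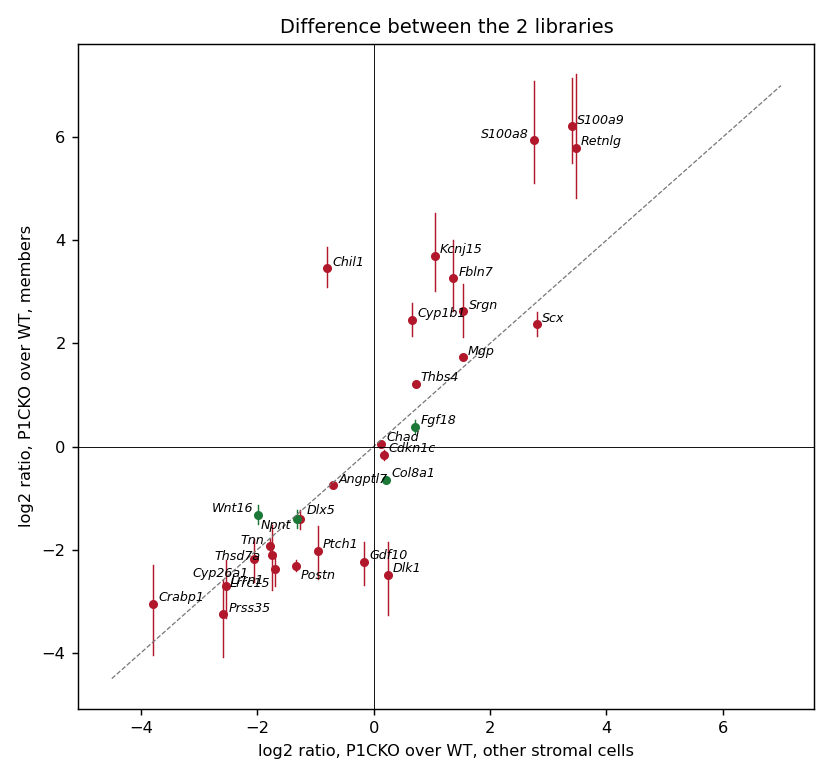
Log2 ratio of P1CKO over WT in the other stromal cells (x axis) and in the members (y axis), with 95% counting intervals of the members as bars and a dashed line where both are equal. Genes of the rule are in green and all other genes in red. Scx is high in both groups (2.37 in members and 2.80 in other stromal cells), while Gdf10 and Dlk1 are at -2.24 and -2.49 in members against -0.17 and 0.24.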

How the data were processed

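The authors deposited UMI counts per gene and cell barcode for each of 2 libraries, whole numbers with no normalization, and per the labels used fastp, UMI-tools, STAR and Seurat 4.0.3. The genome build and strand of counting are not given in the sources used here. Of 31253 features, 31107 were matched to GENCODE vM21 (GRCm38), which also gave gene positions.

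Libraries were kept apart and the rule of the opening paragraph was applied to each. Each group's summed UMIs were scaled to its own total (CPM). Levels have exact Poisson, ratios exact conditional and shares Clopper-Pearson intervals (95%). Ratios used 0.5 added UMIs. Cells were thinned to 2500 UMIs for shares. A gate needed UMIs of at least 3 of 6 blood genes, or 2 of 6 endothelial or mural genes. Cells in several comparison groups (16 and 23) were left out of these. Scrublet (scanpy 1.11.5) called 46 and 67 doublets, 5 and 4 of them members. They were removed only as an alternative.

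Named genes were the rule genes, list genes, and the genes with the largest ratios (with 50 CPM and 100 UMIs as minimum in the higher group): 15 higher and 10 lower against other stromal cells, 8 and 8 against each comparison group, and 10 and 10 between libraries. Mitochondrial, ribosomal protein, hemoglobin, Xist, Tsix and Y-linked genes were left out. The members, the 21 gene lists and the alternatives were chosen with earlier results of these data known, and 2 alternatives were added after seeing the values. The list symbols Rian, Sef and Zac1 were not found. Scripts used Python 3.11.15, numpy 2.4.6, scipy 1.17.1 and pandas 2.3.3 and were tested on simulated data.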

Additional observations from a re-analysis of the deposited data

Results flagged for a closer look

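For 3 genes the P1CKO over WT log2 ratio differed in sign between SSPC-1-like members and other stromal cells, with both counting intervals excluding equality. Of 26 genes examined, these were Chil1, with 3.46 in members and -0.80 in other stromal cells, Ctsk, with -0.24 and 0.05, and Cdkn1c, with -0.16 and 0.17. By sign alone the list would be longer. Dlk1 was at -2.49 in members and 0.24 in other stromal cells, where its interval (-0.09 to 0.57) included equality. Each group has 1 library per genotype, so the difference between members and other stromal cells was not tested. The Chil1 UMIs of the members lay to 51.1% or more in 3 cells of each library, and the ratio was 1.22 within E-only members. For Ctsk and Cdkn1c the E-only intervals included equality, with ratios of 0.00 (-0.20 to 0.20) and -0.14 (-0.34 to 0.06). Both were at -0.35 within E and W members, and at -0.32 and 0.74 within W-only members.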

How the results depend on the processing

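The member share in WT and P1CKO was 14.5% and 8.64% with Col8a1 at 10 CP10K or more, 11.5% and 5.76% at 20, 16.7% and 13.4% with at least 1 marker, 7.83% and 3.00% with at least 3, and 11.3% and 5.94% with 500 to 6000 genes per cell. The Angptl7 log2 ratio of members over other stromal cells was 1.19 and 1.29 with Col8a1 at 10, 1.21 and 1.27 at 20, 1.38 and 0.85 with at least 3 markers, 1.28 and 0.90 in thinned cells, and 1.54 and 1.59 against all other cells. It was 1.31 in WT with no limit on Kera, 1.30 in WT for members in no other gate, 1.12 in P1CKO with 500 to 6000 genes and 0.83 in P1CKO from mean CP10K. Against all other cells 1814 genes were lower. With no minimum beyond 1 UMI, 1105 genes were higher in members, and 1418 were higher and 1659 lower in P1CKO. With a minimum of 50 UMIs these were 282, 88 and 199. Within E-only members 494 genes were higher and 456 lower in P1CKO, and Lrrc15 turned from lower to higher (1.47). Where these settings change the number of cells or genes counted, that is part of the move, and otherwise the cause was not tested. The other 73 of 106 alternatives for the main results, and 596 of 715 for single genes, stayed within counting error, or for counts of genes within 1.5 times.

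Depth limits genes near 0, such as Piezo1 and Mki67 in members. No paired analysis was possible because each genotype has 1 library and no test was run.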
